A study of Mus musculus with 8 samples.

Results

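The CD4 and CD8 coreceptor genes are Cd4, Cd8a and Cd8b1, 3 of the 24505 genes in the deposited count table, and they were taken by gene symbol from that table, independently of their values. They were followed across 8 libraries made from the mouse line Scid.adh.2c2, whose cells resemble pro-T cells and serve as a model of early thymocytes. The cells were infected with retrovirus for wild-type Runx1 (labelled Runx1 WT, 2 libraries), for a construct labelled Runx1 DN (2 libraries), for Satb1 (2 libraries) or for a mock insert (2 libraries). Every vector also carried GFP, so the mock cells had been infected and marked in the same way as the others. Infected cells were sorted at day 2 after infection, RNA was taken from 300000 cells, and single reads of 50 nt were sequenced with a kit that does not mark strand. DN is not spelled out in the labels; in work on Runx proteins it usually stands for dominant negative. The promoter that drives the inserts and the part of Runx1 in the DN construct are not given in the sources used here. All libraries came from a single cell line, and the labels do not say whether replicates were separate infections, so p-values measure the spread between these libraries, which may be technical.

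CD4 is a single-chain coreceptor that binds MHC class II, and CD8 is a dimer of an alpha chain (Cd8a) with a beta chain (Cd8b1) or with a second alpha chain that binds MHC class I. Both bring the kinase Lck to the T cell receptor. Early thymocytes make neither, later thymocytes make both, and helper and cytotoxic T cells keep CD4 or CD8. Runx proteins with their partner Cbfb are known to act on both loci: they bind a silencer in the first intron of Cd4, which Runx1 uses in early thymocytes and Runx3 in cytotoxic cells, and they bind enhancers of the Cd8 locus. Satb1, a chromatin organiser of thymocytes, is also reported to be needed for normal coreceptor choice in mice.

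The constructs were visible in the counts. Runx1 reached 7977 ± 467 CPM (counts relative to the library total, after scaling by its TMM factor) in Runx1 WT cells, 22720 ± 2149 CPM in Runx1 DN cells and 182 ± 2.28 CPM in Satb1 cells, against 134 ± 5.89 CPM in mock cells (SD, n = 2 each). Satb1 reached 3783 ± 283 CPM in Satb1 cells, against 381 ± 5.25 CPM in mock cells. Which of these reads came from the insert cannot be told apart. Library totals ran from 23624498 to 33093330 counts, 18438 genes had a count in any library and 12699 were tested. Of the genes tested, 70.7% were called at an adjusted p under 0.05 in Runx1 WT against mock, 34.5% in Runx1 DN against mock and 6.36% in Satb1 against mock. The corresponding shares were 68.3% in Runx1 WT against Runx1 DN, 70.9% in Runx1 WT against Satb1 and 38% in Runx1 DN against Satb1. With so many genes called, a call by itself says little about a coreceptor gene, so the sizes of the changes are given beside the calls.

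All 3 genes lie on chromosome 6. In mm9 coordinates, Cd4 (NM_013488, minus strand) spans chr6:124814711-124838227 with 3083 exonic bases. Cd8b1 (NM_009858, plus strand) spans chr6:71272806-71287445 with 1408 exonic bases, and Cd8a (NM_009857, plus strand) spans chr6:71323421-71329165 with 3093 exonic bases. Cd8b1 lies 35976 bp upstream of Cd8a with 0 other rows of the table between them, and 0 rows overlap any of the 3 genes, so that the lack of strand does not mix them with an annotated neighbour. In GENCODE M21 transcripts, 0 of 4025 windows of 50 bases in Cd4 occurred in another gene. In Cd8a 3 of 3683 did, and in Cd8b1 90 of 1434 (6.28%). How many of the Cd8b1 counts came from reads in such windows was not tested, and their share may differ from 6.28%.

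Of the 3 members, Cd8a was the one in the RefSeq promoter table used here (build GRCm38.p6). Its window is shown because the gene sits in a locus under Runx control and because the Runx core, TGTGGT or TGCGGT on either strand, was searched in it. The capitals mark the single match, ACCGCA, which reads TGCGGT on the minus strand and begins 43 bases after the start site.

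Cd8a promoter, GRCm38.p6 chr6:71373177-71373476, plus strand: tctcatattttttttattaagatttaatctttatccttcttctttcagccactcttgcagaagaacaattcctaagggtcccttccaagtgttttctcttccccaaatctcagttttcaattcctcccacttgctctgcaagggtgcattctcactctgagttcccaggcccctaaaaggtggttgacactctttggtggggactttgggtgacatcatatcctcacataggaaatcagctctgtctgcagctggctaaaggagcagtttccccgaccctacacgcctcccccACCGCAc

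The Runx core was present in 22.41% of the 32851 promoter windows of the same length, so its presence in Cd8a is common among genes. An E-box (CAGCTG or CAGGTG) matched once as CAGCTG, 2 bases before the start site, and 32.95% of windows held that motif. The ETS letters AGGAAG or CGGAAG (46.47% of windows), the TCF/LEF letters CTTTGA or CTTTGT (31.2%) and the GATA letters AGATAA or TGATAA (18.61%) had 0 matches in this window, each searched on both strands.

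Cd4 was much higher in Runx1 WT cells than in any other group. The Runx1 WT libraries held 226 and 252 Cd4 counts, equal to 8.06 and 9.0 CPM. The Runx1 DN libraries held 6 and 6 counts (0.249 and 0.216 CPM), the Satb1 libraries 5 and 1 (0.172 and 0.0318 CPM) and the mock libraries 8 and 5 (0.302 and 0.160 CPM). Both Runx1 WT libraries therefore stood far above all 6 others, which lay near the level that 3 counts would give in them (0.0953 to 0.125 CPM). Cd4 passed the filter on low counts only through the Runx1 WT libraries.

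The log2 fold change of Cd4 was 5.21 ± 0.35 (SE) in Runx1 WT against mock, with an adjusted p of 5.39e-07 from edgeR's quasi-likelihood test. As a ratio of summed counts this was 37.9-fold, with a 95% counting interval of 21.96 to 71.7. In this comparison 38.9% of the genes tested were called higher and 31.8% lower. Since Cd4 was tested only because of its counts in the Runx1 WT libraries, its calls are given as a description, and the size of the difference is read from the counts and their interval. Against Runx1 DN the log2 fold change in Runx1 WT was 5.18 ± 0.35 (adjusted p = 6.94e-07), a ratio of 36.8 (interval 20.9 to 71.8), beside 34.8% of genes called higher in that comparison. Against Satb1 it was 6.36 ± 0.39 (adjusted p = 3.09e-07). That last value rested on 6 counts in the Satb1 libraries, and it was 7.88 without Satb1 replicate 1 and 5.59 without Satb1 replicate 2. Counting intervals and floors cover counting error alone: the reads carry no molecular identifiers and need not be independent molecules.

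Among the groups with few Cd4 counts, no difference was detectable at this depth. In Runx1 DN against mock the log2 fold change was 0.04 ± 0.60 (adjusted p = 0.97), and the ratio of 1.03 had an interval of 0.429 to 2.45. In Satb1 against mock it was -1.15 ± 0.69 (adjusted p = 0.43), with a ratio of 0.440 and an interval of 0.137 to 1.24. The libraries of both pairs overlapped. The authors' deposited table gave log2 fold changes over mock of 5.11 in Runx1 WT (adjusted p = 3.64e-61), 0.03 in Runx1 DN (adjusted p = 1) and -1.16 in Satb1 (adjusted p = 1) for Cd4.

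**Figure D1:**
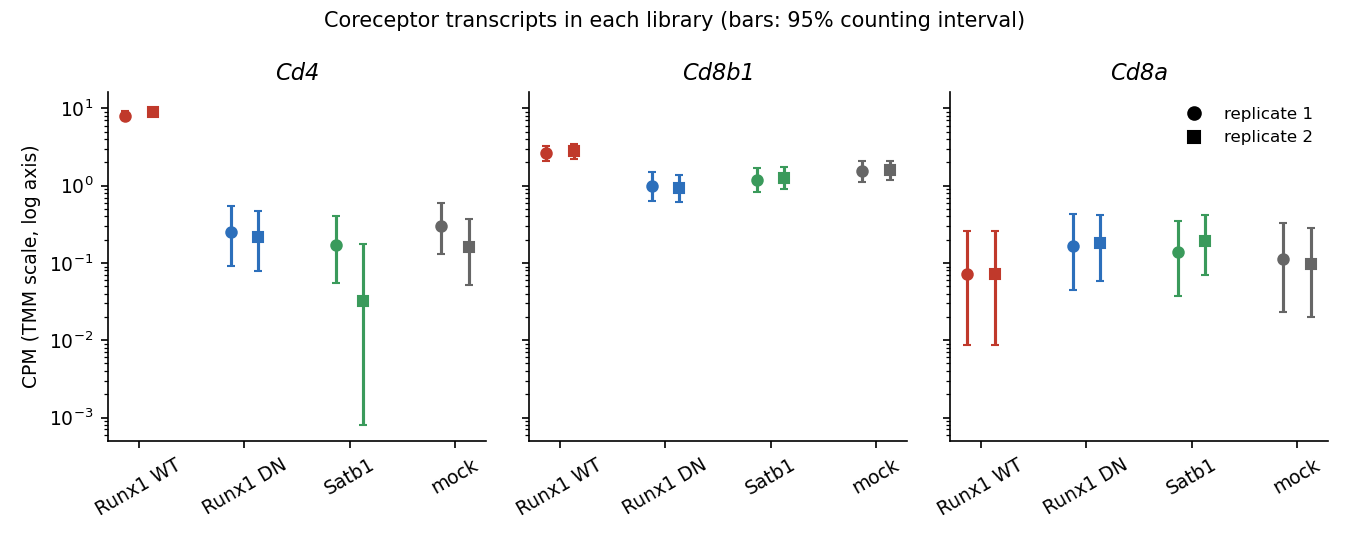
CPM of Cd4, Cd8b1 and Cd8a in each library on a log axis, by group, with circles for replicate 1, squares for replicate 2 and bars for the 95% counting interval. The 2 Runx1 WT libraries hold 8.06 and 9.0 CPM of Cd4 and every other library at most 0.302 CPM, while Cd8b1 moves within 0.936 to 2.79 CPM.

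Cd8b1, the beta chain that pairs with Cd8a, was present at a low level in all 4 groups and, like Cd4, stood highest in Runx1 WT cells. The Runx1 WT libraries held 74 and 78 counts (2.64 and 2.79 CPM) and the Runx1 DN libraries 24 and 26 (0.998 and 0.936 CPM). The Satb1 libraries held 35 and 40 counts (1.202 and 1.27 CPM), and the mock libraries 41 and 50 (1.55 and 1.60 CPM). The order from high to low was Runx1 WT, mock, Satb1 and Runx1 DN, and the libraries of no 2 groups overlapped. Non-overlap was common in the table: it held for 84.6% of genes in Runx1 WT against mock and 69.2% in Runx1 DN against mock. It held for 51.8% in Satb1 against mock and 83.1% in Runx1 WT against Runx1 DN. The share of all genes was not counted for Runx1 WT or Runx1 DN against Satb1, so non-overlap in those pairs has no background here.

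Cd8b1 rose in Runx1 WT against mock by 0.78 ± 0.21 on the log2 scale (edgeR adjusted p = 0.0069), a ratio of 1.72 with a counting interval of 1.32 to 2.26. DESeq2 gave 0.74 with an adjusted p of 0.10. The rise over Runx1 DN was larger, 1.49 ± 0.23 (adjusted p = 0.000229), and that over Satb1 was 1.13 ± 0.22 (adjusted p = 0.00086). In Runx1 DN against mock Cd8b1 was lower, with a log2 fold change of -0.70 ± 0.24 and an adjusted p of 0.0476 that lies at the threshold. This call was lost in 18 of 20 alternative settings, with adjusted p of 0.041 to 0.21 over all of them, and it was lost whichever library was left out. In the same comparison 16.9% of genes were called lower and 17.5% higher. The neighbours Satb1 and mock in this order did not pass the test (-0.35 ± 0.23, adjusted p = 0.48), nor did Runx1 DN and Satb1 (-0.36 ± 0.25, adjusted p = 0.29). The authors' deposited table gave Cd8b1 log2 fold changes over mock of 0.68 in Runx1 WT (adjusted p = 0.0181), -0.71 in Runx1 DN (adjusted p = 0.14) and -0.35 in Satb1 (adjusted p = 1).

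Cd8a was at the edge of detection everywhere. It had 2 and 2 counts in the Runx1 WT libraries, 4 and 5 in the Runx1 DN libraries, 4 and 6 in the Satb1 libraries and 3 and 3 in the mock libraries, 29 counts in all. It failed the low-count filter and has no adjusted p. The Runx1 WT and mock libraries did not exceed 3 counts, the floor used here, so no fold is given between them. Of the other ratios of summed counts, Runx1 DN over mock was 1.67 with a counting interval of 0.532 to 5.71. Satb1 over mock was 1.59 (0.523 to 5.32), Runx1 WT over Runx1 DN 0.411 (0.0925 to 1.47) and Runx1 WT over Satb1 0.432 (0.0990 to 1.499). All 4 intervals include 1, so a change of Cd8a was not detectable at this depth.

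**Figure D2:**
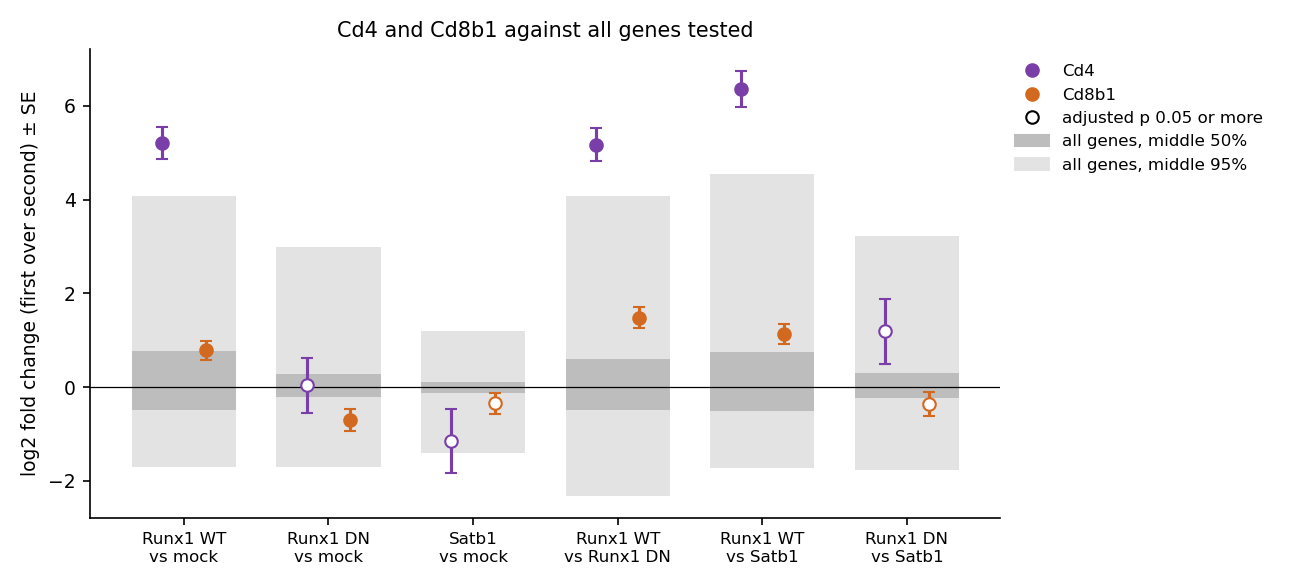
Log2 fold changes ± SE of Cd4 and Cd8b1 in the 6 comparisons, with grey bands for the middle 50% and middle 95% of all 12699 genes tested and open symbols where the adjusted p is 0.05 or more. Cd4 lies above the 95% band in the 3 comparisons with Runx1 WT on top, at 5.21, 5.18 and 6.36, while Cd8b1 lies at 0.78, 1.49 and 1.13 in them. Cd4 passed the low-count filter only through the Runx1 WT libraries.

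Scaled to exon length, the order of the 3 genes changed between groups. Cd4 stood at 2.61 and 2.92 CPM per kb in the Runx1 WT libraries, above Cd8b1 at 1.87 and 1.98 and Cd8a at 0.0231 in both. In Runx1 DN cells Cd8b1 led with 0.709 and 0.665 CPM per kb, and Cd4 had 0.0809 and 0.0701. Satb1 cells held 0.854 and 0.903 CPM per kb of Cd8b1, and 0.0557 and 0.0103 of Cd4. Mock cells held 1.10 and 1.13 of Cd8b1, and 0.0981 and 0.0518 of Cd4. Cd8a ranged from 0.0231 to 0.0616 CPM per kb over all 8 libraries. In bulk RNA, fewer cells with a transcript and less transcript per cell cannot be told apart.

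Even at its highest, Cd4 was not an abundant transcript. Its mean level per kb exceeded that of 48.3% of the 18438 detected genes in Runx1 WT cells, 29.2% in Runx1 DN cells, 27.7% in Satb1 cells and 32.0% in mock cells. Cd8b1 exceeded 45.9%, 41.7%, 44.1% and 45.4% of them in the same order of groups, and Cd8a 20.5%, 27.0%, 30.3% and 27.6%.

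The chains of the CD8 dimer were far from equal at the RNA level. The ratio of Cd8b1 to Cd8a per kb was 81.3 and 85.7 in the Runx1 WT libraries, 13.2 and 11.4 in the Runx1 DN libraries, 19.2 and 14.6 in the Satb1 libraries and 30.02 and 36.6 in the mock libraries. Each of these ratios rests on 2 to 6 Cd8a counts. From summed counts the ratio was 83.5 in Runx1 WT (95% counting interval 31.9 to 310.3), 12.2 in Runx1 DN (5.94 to 28.2), 16.5 in Satb1 (8.48 to 35.8) and 33.3 in mock cells (14.7 to 93.2). The intervals of Runx1 WT and mock overlapped, and so did those of both other groups and mock. Those of Runx1 WT and Runx1 DN did not overlap. They rest on 4 and 9 summed Cd8a counts and leave out the spread between libraries. An exact permutation test (two-sided) gave p = 0.333 for Runx1 WT against mock, which is the smallest p that 2 libraries against 2 allow.

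**Figure D3:**
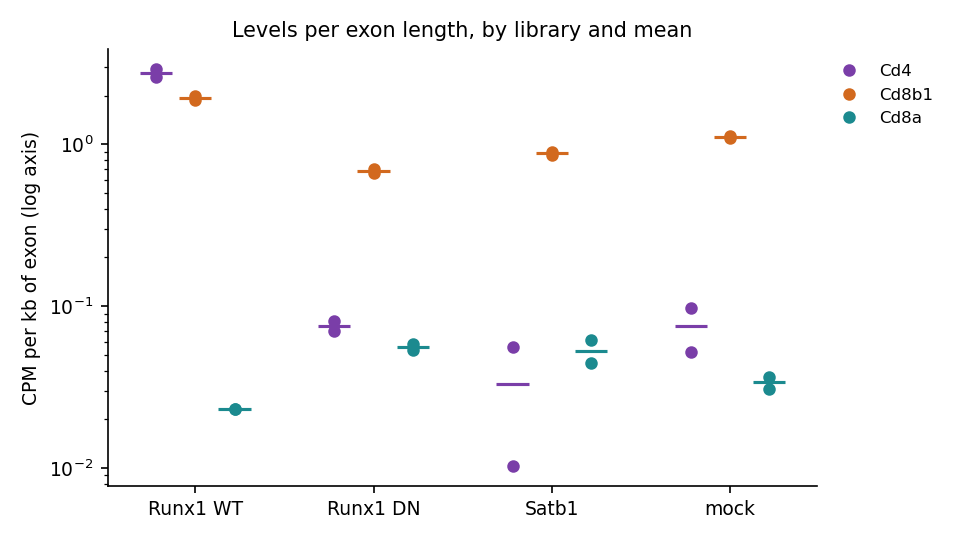
CPM per kb of exon for Cd4, Cd8b1 and Cd8a in each library (points) with the mean of 2 libraries (line), on a log axis. Cd4 lies above Cd8b1 in Runx1 WT cells and below it in the Runx1 DN, Satb1 and mock cells, where it comes near Cd8a.

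The rise of Cd4 in Runx1 WT was set beside the nearest detected genes, 5 on each side. Gpr162, an orphan receptor gene 776 bp from Cd4, rose by 0.63 ± 0.14 on the log2 scale (adjusted p = 0.0024), against 5.21 for Cd4. Lag3, a CD4-related inhibitory receptor gene 16150 bp away on the other side, had 0.250 CPM in Runx1 WT cells and 0.235 CPM in mock cells (log2 fold change 0.05 ± 0.67, adjusted p = 0.95). Gnb3, a G protein beta subunit gene 24418 bp away, had 42 and 35 counts in the Runx1 WT libraries and 1 and 0 in the mock libraries. Like Cd4 it passed the filter only through the Runx1 WT libraries. Its ratio of summed counts was 79.4 with a counting interval of 13.8 to 3176, so the size of its difference is poorly known. Of the other 7 neighbours of Cd4, Ptms rose by 0.58, Cdca3, Cops7a and Usp5 fell by 1.03, 0.79 and 0.45, P3h3 and Mlf2 did not pass the test and Pianp failed the filter. In Runx1 DN, where Cd4 had 6 counts in each library, Lag3 held 12 and 28 counts, against 4 and 10 in mock libraries, with a log2 fold change over mock of 1.65 ± 0.55 (adjusted p = 0.043). It passed the filter only through the Runx1 DN libraries, and the call was lost in 9 alternatives, among them without Runx1 DN replicate 2 (1.04), without mock replicate 1 and without mock replicate 2 (2.30).

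Next to the Cd8 pair, the changes called in Runx1 WT in the nearest genes, apart from Eif2ak3, were of the size seen for Cd8b1 or smaller. Mir8112, 51011 bp from the pair, had a larger value of 0.98 ± 0.46 but was not called. Rmnd5a, a ubiquitin ligase subunit gene 9463 bp beyond Cd8a, rose by 0.45 ± 0.07 (adjusted p = 0.00013), and Rnf103, the next one, by 0.76 ± 0.08, beside 0.78 for Cd8b1. Rnf103 also rose in Runx1 DN (0.69 ± 0.08), where Cd8b1 was lower. Krcc1, 37493 bp below Cd8b1, did not pass the test with any construct. Farther out, Eif2ak3, the PERK kinase gene of the unfolded protein response at a distance of 417571 bp, rose by 2.65 ± 0.08, and Thnsl2 rose in Satb1 cells by 1.26 ± 0.14. Mir8112, Chmp3, Kdm3a and Reep1 did not pass the test with any construct, and Smyd1, like Cd8a, failed the filter.

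**Figure D4:**
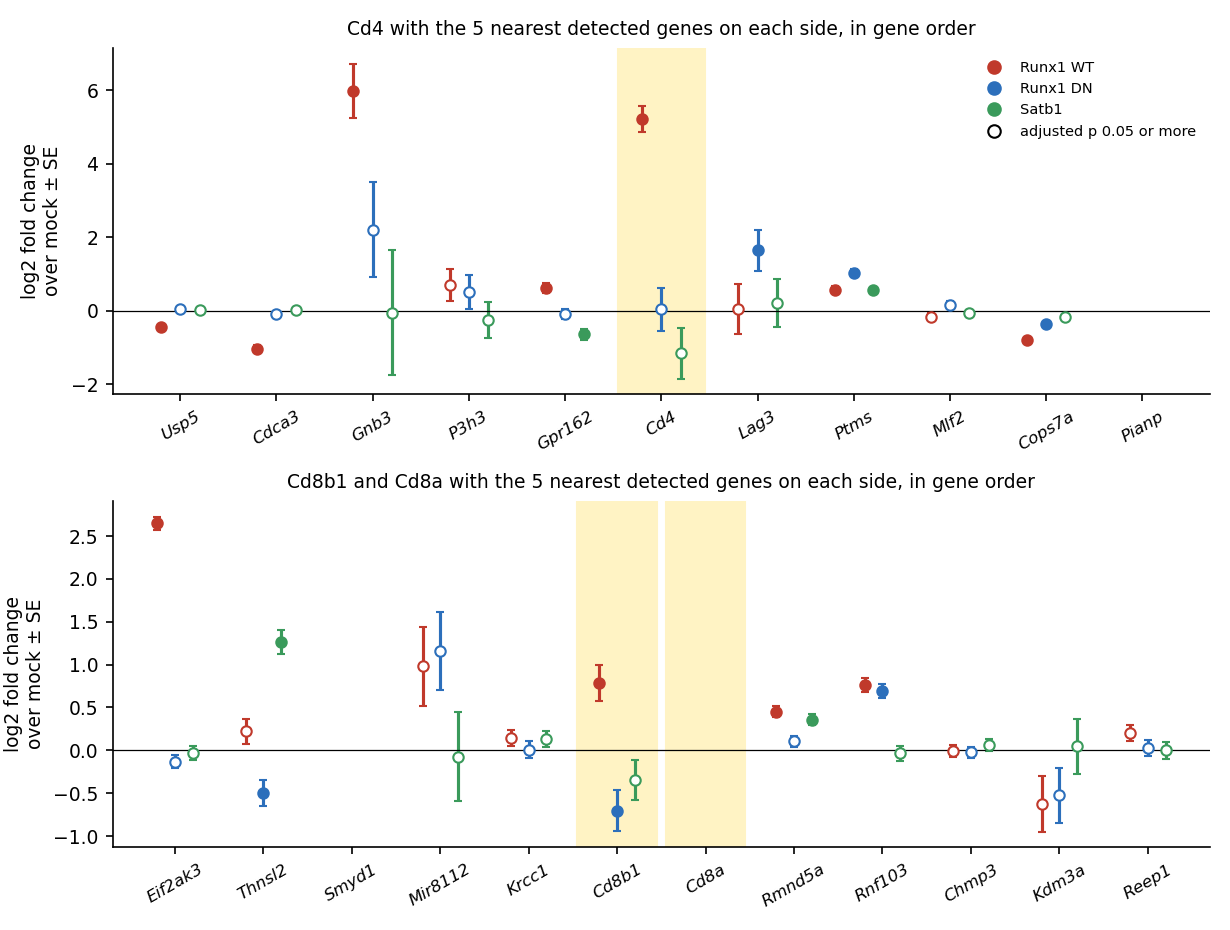
Log2 fold change ± SE over mock for Cd4 (upper panel), Cd8b1 and Cd8a (lower panel, shaded) and the 5 nearest detected genes on each side, in gene order and not to distance, with open symbols where the adjusted p is 0.05 or more. In Runx1 WT, Cd4 (5.21) and Gnb3 (5.99, on 1 mock count) stand above their neighbours. Both passed the low-count filter only through the Runx1 WT libraries, and genes without a symbol failed it.

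Of 23 factors reported to act on Cd4 or Cd8 control regions, Runx1 and Satb1 among them, 13 rose and 4 fell in Runx1 WT against mock (median log2 fold change 0.53, all genes tested 0.10). With 73.9% of the list called, beside 70.7% of all genes (38.9% higher and 31.8% lower), this share is near the background. Among the 13, Runx2 passed the filter only through Runx1 WT. Runx1 is counted among those that rose with both Runx1 constructs, and Satb1 among those that rose in Satb1 cells. Those rises of the inserted genes were fixed by the design. In Runx1 DN 2 rose, Runx1 and Zbtb7b, and 15 fell (median -0.49, all genes 0.00), beside 17.5% of all genes called higher and 16.9% lower. In Satb1 5 rose and 2 fell (median 0.05), beside 3.28% of all genes called higher and 3.09% lower. Fewer rose without Satb1 replicate 1 or mock replicate 2. The 4 that fell in Runx1 WT became 2 without mock replicate 1. In Runx1 WT against Runx1 DN, where Cd4 differed by 5.18, 17 were higher, Runx2 among them, and 2 lower, Runx1 among them. The median was 0.98 (all genes 0.01), beside 34.8% of all genes called higher and 33.5% lower.

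Runx family genes other than the inserted one also rose in Runx1 WT. Runx3, which silences Cd4 in cytotoxic cells, had 235 and 298 CPM in Runx1 WT libraries and 26.8 and 37.0 CPM in mock libraries. Its log2 fold change was 3.06 ± 0.15 (edgeR adjusted p = 9.43e-08), in the same bulk libraries in which Cd4 rose. In Runx1 DN (-0.04 ± 0.15, adjusted p = 0.86) and Satb1 (0.19 ± 0.15, adjusted p = 0.57) it did not pass the test. Runx2 had 45 and 58 counts in Runx1 WT libraries and 2 and 1 in mock libraries, a ratio of 35.4 with a counting interval of 11.8 to 174.5. Cbfb, their shared partner, fell by 0.53 ± 0.07 in Runx1 DN (adjusted p = 0.00022). Its fall by 0.20 ± 0.07 in Runx1 WT (adjusted p = 0.023) was lost without Runx1 WT replicate 1 or mock replicate 1 and with library size as the only scaling.

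Zbtb7b (ThPOK), which counters Cd4 silencing in helper cells, rose with both Runx1 constructs, while Cd4 rose with Runx1 WT. Zbtb7b had 154 and 151 CPM in Runx1 WT libraries, 154 and 122 CPM in Runx1 DN libraries, 57.7 and 58.5 CPM in Satb1 libraries and 93.4 and 88.4 CPM in mock libraries. Over mock it rose by 0.75 ± 0.10 in Runx1 WT (adjusted p = 7.83e-05) and by 0.60 ± 0.10 in Runx1 DN (adjusted p = 0.0012), and it fell by 0.64 ± 0.10 in Satb1 (adjusted p = 0.0039). The call in Satb1 was lost without the mock and Satb1 libraries numbered 2. Between the 2 Runx1 constructs it did not pass the test (0.14 ± 0.10, adjusted p = 0.22). Gata3, which acts upstream of Zbtb7b, rose by 1.65 ± 0.12 in Runx1 WT and fell by 2.44 ± 0.13 in Runx1 DN. Tcf7 (TCF-1) was at 1238 CPM in Runx1 WT cells and 1233 CPM in mock cells, and fell by 2.69 ± 0.08 in Runx1 DN, as Ets1 did by 1.60 ± 0.07. Patz1 (MAZR), a known repressor of Cd8 in thymocytes, rose by 1.38 ± 0.07 in Runx1 WT, in which Cd8b1 rose, and fell by 0.35 ± 0.07 in Runx1 DN. Lef1, the relative of Tcf7, rose by 2.15 ± 0.09 in Satb1 cells.

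**Figure D5:**
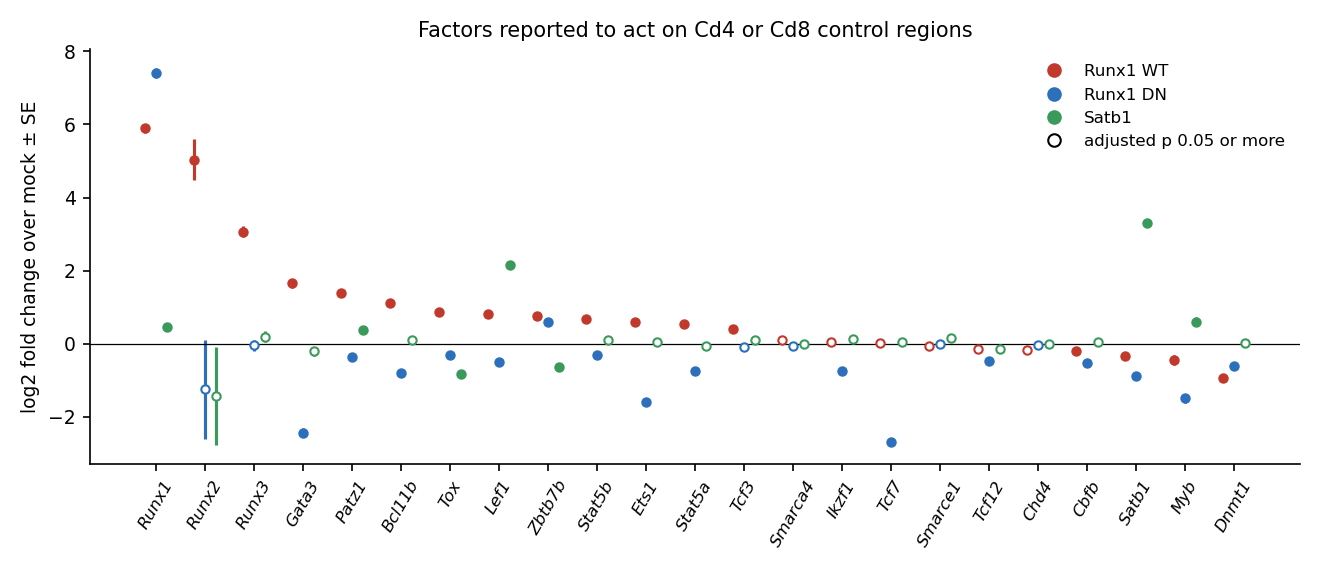
Log2 fold change ± SE over mock of the 23 listed factors for Runx1 WT, Runx1 DN and Satb1, ordered by the Runx1 WT value, with open symbols where the adjusted p is 0.05 or more. Runx2 (5.03, on 3 mock counts) and Runx3 (3.06) are high with Runx1 WT, Tcf7 (-2.69) and Gata3 (-2.44) are lowest with Runx1 DN, and Lef1 (2.15) is high with Satb1.

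The partners and ligands of the coreceptors spanned a wide range of levels. Lck, the kinase that binds both coreceptor tails, had 574 and 567 CPM in Runx1 WT libraries, 70.2 and 75.4 CPM in Runx1 DN libraries, 474 and 457 CPM in Satb1 libraries and 294 and 293 CPM in mock libraries. It rose by 0.96 ± 0.07 in Runx1 WT and 0.67 ± 0.07 in Satb1 and fell by 2.01 ± 0.07 in Runx1 DN, where no change of Cd4 was detectable. Of all genes tested, 38.9% were called higher and 31.8% lower in Runx1 WT against mock (median 0.10). In Runx1 DN these shares were 17.5% and 16.9% (median 0.002), and in Satb1 3.28% and 3.09% (median -0.004). Of 14 genes that act at the T cell receptor, 13 rose and 1 fell in Runx1 WT (median 1.11). In Runx1 DN 1 rose and 9 fell (median -0.63), and in Satb1 3 rose and 1 fell (median 0.01). The fall in Runx1 WT, Csk, was lost without Runx1 WT replicate 2 or mock replicate 2, the rise in Runx1 DN, Unc119, without Runx1 DN replicate 1 or either mock library. All 14 were higher in Runx1 WT than in Runx1 DN (median 1.87), beside 34.8% of all genes called higher there. Of 8 ligand genes, H2-Aa passed the filter only through the Runx1 WT libraries (1.41 CPM in Runx1 WT cells, 0.269 in Runx1 DN, 0.0502 in Satb1 and 0.0319 in mock cells). Of the other 7, 6 rose in Runx1 WT and 1 did not pass, beside 38.9% of all genes called higher. H2-K1 and H2-D1, class I chains that CD8 binds, rose by 2.53 ± 0.07 and 2.71 ± 0.09. In Runx1 DN 4 of the 8 rose and 2 fell, the falls being 1 without either Runx1 DN library or without mock replicate 2. In Satb1 edgeR called 0 of 8, of which 3 had an unadjusted p under 0.05, and DESeq2 called 1 higher and 1 lower.

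Genes of the stages and lineages that the coreceptors mark were counted in the same way. Among all genes tested, 38.9% were called higher and 31.8% lower in Runx1 WT against mock. For Runx1 DN against mock these shares were 17.5% and 16.9%. Of 12 genes of later thymocytes, which carry both coreceptors, 10 rose in Runx1 WT and 2 did not pass (median 1.83), while 3 rose and 4 fell in Runx1 DN. In Satb1 4 rose, and 2 without mock replicate 1. Ccr7, among those that rose in Runx1 DN, and Cd5, among those in Satb1, passed the filter only through those groups. Of 12 genes of the pro-T stage, before coreceptors appear, Cd44 failed the filter and Kit passed it only through Runx1 WT. Of the other 10, 3 rose and 6 fell in Runx1 WT. Of the 11 tested, 3 rose and 4 fell in Runx1 DN, and 6 rose in Satb1 beside 3.28% of all genes called higher and 3.09% called lower. Of 11 cytotoxic lineage genes, which accompany CD8 in mature cells, Klrd1 and Eomes failed the filter, and Gzmb and Prf1 passed it only through Runx1 WT. The other 7 rose in Runx1 WT, among them Itgae by 7.49 ± 0.20 (8.09 without mock replicate 2) and Tbx21 by 3.67 ± 0.13, whereas Cd8a stayed at 2 counts in each library. In Runx1 DN 5 of the 9 tested fell and 4 did not pass, and in Satb1 4 rose and 2 fell. Of 4 tested helper lineage genes, 3 rose and 1 fell in Runx1 WT, 1 rose and 3 fell in Runx1 DN, and 1 rose and 2 fell in Satb1. These 4 (Zbtb7b, Gata3, Tox and Myb) are also among the 23 factors counted above, as is Runx3 of the cytotoxic list. They are not separate findings. Cd40lg, also on the helper list, failed the filter. The fall of Myb in Runx1 WT was lost without Runx1 WT replicate 2 or mock replicate 1, and its rise in Satb1 in 4 of 20 alternatives, among them without Satb1 replicate 1 or mock replicate 2. The fall of Tox in Runx1 DN (-0.30 ± 0.10, adjusted p = 0.042) was lost in 12 of 20, among them without any one of the Runx1 DN, Satb1 or mock libraries.

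Markers of other cell types, only some of which can carry CD4 or CD8, were counted too. The calls given are those in Runx1 WT against mock, where 38.9% of all genes were called higher and 31.8% lower. Of 7 dendritic cell genes 4 were tested. Xcr1 passed the filter only through Runx1 WT, and 2 of the other 3 rose, with sums of 19.6 to 21.4 CPM in Runx1 WT libraries, 7.88 to 8.19 in Runx1 DN, 14.6 to 17.1 in Satb1 and 12.5 to 14.2 in mock. Irf8 was at 0 in Runx1 WT, and Clec9a, Irf8 and Zbtb46 were at 0 in mock. Of 9 myeloid genes 4 were tested, with sums of 70.5 to 76.1 CPM in Runx1 WT, 18.0 to 19.7 in Runx1 DN, 12.5 to 19.8 in Satb1 and 7.56 to 9.93 in mock. Itgam, which NK cells also carry, made up most of the sum, with 67.7 CPM in Runx1 WT and 8.33 CPM in mock cells, and it rose, as did Csf1r (2.52 CPM in Runx1 WT cells, 0 in mock cells). Ly6g, at 2.39 CPM in Runx1 WT and 0.231 CPM in mock cells, passed the filter only through Runx1 WT, and Adgre1 did not pass the test. Lyz2, Cd14, Mpo and Elane together held at most 0.428 CPM in any library. Of 7 NK and innate lymphoid genes, Klrb1c, Klrk1 and Ncr1 passed the filter only through Runx1 WT and the other 4 rose, with sums of 743 to 794 CPM in Runx1 WT, 84.1 to 88.5 in Runx1 DN, 84.0 to 106 in Satb1 and 66.0 to 82.4 in mock. The 7 B cell genes summed to at most 1.21 CPM in any library, and the 1 tested did not pass. Of 6 RNA quality transcripts 3 rose and 1 fell in Runx1 WT, with sums of 2532 to 2833 CPM in Runx1 WT, 3094 to 3287 in Runx1 DN, 2582 to 2681 in Satb1 and 2697 to 2740 in mock. The part of these cell types and of RNA quality in the coreceptor levels was not tested. As for the labelled cell type, of the 12 pro-T genes Notch1, Il2ra, Dtx1, Cd24a, Rag1, Thy1, Ptcra and Hes1 averaged at least 67.9 CPM in mock cells. Of the others, Rag2 stood at 2.79, Dntt at 0.482 and Kit at 0.359 CPM, and Cd44 was at 0.

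Among the 5 genes whose pattern over the 8 libraries was most like that of Cd4, by the root mean square difference of centred log2 CPM among 12650 genes, were Slc44a4 (0.451), Tusc5 (0.460), Foxred2 (0.472) and Pon1 (0.473). Slc44a4, a choline transporter-like gene, had 6.48 CPM in Runx1 WT cells, 0.0776 in Runx1 DN, 0.0331 in Satb1 and 0.0857 in mock cells. Outside Runx1 WT, Slc44a4, Tusc5 and Pon1 averaged at most 0.0857 CPM in any group. Their likeness to Cd4 therefore rests on high Runx1 WT values over very few counts elsewhere. For Cd8b1 the 5 closest were Inpp5d (0.068), Itpkb (0.085), Zfp93 (0.096), Tbc1d9b (0.102) and Pim2 (0.105). Inpp5d, the SHIP1 phosphatase gene, had 222.9 CPM in Runx1 WT cells, 88.0 in Runx1 DN, 101 in Satb1 and 129 in mock cells. These are descriptions over 8 libraries, and ranking by Pearson correlation shared 0 of the 5 genes for either member.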

How the data were processed

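Per the file headers, HOMER counted the reads of the 8 libraries in exons of mm9 genes with no adjustment for length or depth, so the deposited values are whole-number counts. The submitters' processing notes name edgeR 3.6.8, HOMER, RSEM 1.2.25, STAR 2.4.0 and Trimmomatic 033, with no roles given. The deposited table also gives the authors' log2 fold change, p-value and adjusted p-value of each construct against mock, and the exon length of each gene. Those fold changes are positive where the construct's counts are higher and were read as construct over mock, although the headers put mock first.

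The low-count filter was filterByExpr at a minimum count of 10 and a minimum total of 15, which 12699 genes passed. After TMM scaling, all libraries entered one quasi-likelihood fit with group means (edgeR 4.0.16 under R 4.3.3) that left 4 residual degrees of freedom, with a common biological coefficient of variation of 0.0818 and 5.84 prior degrees of freedom. P-values were two-sided and adjusted by Benjamini-Hochberg over all genes tested, with a threshold of 0.05. Levels are CPM on the TMM scale, per kb of exon where genes are compared. Counting intervals are at the 95% level, Poisson for a library and exact binomial for a ratio of summed counts. Patterns used log2 CPM with a prior count of 2.

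Named genes are the 3 members, Runx1, Runx3, Cbfb, Zbtb7b, Satb1, up to 4 members of each list with the smallest adjusted p in a comparison, 5 locus neighbours a side and 5 genes of similar pattern. Of the last, 1 is not reported here. Genes outside this rule, such as Csk, Unc119, Runx2, H2-Aa, the pro-T and myeloid markers and those that passed the filter through 1 group, were named after their values were seen. The members and lists were chosen with earlier results of these data known. Replicates of a group differed by more than sampling noise, so each was counted as its own sample. Alternatives were other scalings, filters and tools, a replicate block and leaving out libraries.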

Additional observations from a re-analysis of the deposited data

How the results depend on the processing

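Cd4 in Runx1 WT was higher under all 20 alternatives, with log2 fold changes of 4.79 to 5.70 against mock. They were 5.07 to 5.26 against Runx1 DN and 5.59 to 7.88 against Satb1. Since Cd4 passed the main filter only through the Runx1 WT libraries, these values are a description of size, and its calls are not counted as support. For Cd8b1 in Runx1 WT against mock the call was lost with DESeq2 (0.74, adjusted p = 0.10), and it held against Runx1 DN (1.40 to 1.53) and Satb1 (1.07 to 1.25). Cd8b1 in Runx1 DN against mock kept its direction, and its call in 2 of 20 alternatives: with RLE scaling (-0.73) and with the replicate number as a block (-0.70, adjusted p = 0.048). It lost the call with library size alone (-0.62), upper quartile scaling (-0.64), scaling without Runx1 and Satb1 (-0.69), DESeq2 (-0.73), limma-voom (-0.69), robust empirical Bayes (-0.70), no filter (-0.71), a stricter filter (-0.68), the 2 groups alone (-0.69), without the mock and Satb1 libraries numbered 2 (-0.68) and without any one library (-0.74 to -0.66). Cd4 in Runx1 DN against mock, not called, ran from -0.38 to 0.52. The labels tie same-numbered libraries by nothing but the number, and whether they share a batch is not given (correlations of their deviations 0.068 to 0.392, the highest for Satb1 and mock). The replicate block changed no other member's call and moved the genes called in Satb1 against mock to 1265, against 808 without it. That count was 314 without the mock and Satb1 libraries numbered 2 and 430 to 839 without any one library. In Runx1 DN it was 2715 against mock (main 4375) and 3021 against Satb1 (main 4825) without the libraries numbered 2, and 2908 to 4675 against mock without any one library. A setting that leaves a group with 1 library assumes that it varies like the others. Of the genes called in Runx1 DN against mock, 50.9% were higher, 65.6% with library size alone, 61.5% with upper quartile scaling, 46.3% with RLE scaling and 44.4% with DESeq2. Library size alone moved the median of all genes in Runx1 WT against mock to 0.22, against 0.10. Without division by exon length, the ratio of Cd8b1 to Cd8a was 38 in Runx1 WT, 5.6 in Runx1 DN, 7.71 in Satb1 and 15.2 in mock. Of the 5 genes most like Cd4, Pearson correlation kept 0 and a prior count of 0.5 kept 1; of those like Cd8b1 they kept 0 and 5. The causes of these shifts were not tested. Cd8a had too few counts for any tool with a filter.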
